A study of Mus musculus with 12 samples.

Results

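Grm2, Grm3, Grm4, Grm5, Grm7 and Grm8 encode metabotropic glutamate receptors, and these 6 genes were followed through the whole brains of mice with 4 genotypes at Rorb. They were found by their Ensembl identifiers among the 38924 genes of the deposited tables, and all 6 passed the filter on low counts that left 16493 genes for testing. Each genotype had 3 mice aged 6 weeks, with 1 library of polyadenylated RNA per mouse. Wild type (WT) mice and mice homozygous for the h1 allele (Rorbh1/h1) were on C57BL/6J. Mice homozygous for h2 (Rorbh2/h2) were on B6(Cg)-Tyrc-2J/J, which carries an allele of the tyrosinase gene Tyr, and mice homozygous for h4 (Rorbh4/h4) on B6.129S7-Il1r1tm1Imx/J, which carries a targeted allele of the interleukin receptor gene Il1r1. Allele and background strain therefore cannot be told apart in h2 and h4. No group received a treatment that the labels name. The comparisons ask how the level of each receptor gene differs between the genotypes.

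Metabotropic glutamate receptors are G protein-coupled receptors that adjust the strength of synapses, unlike the ionotropic receptors, which are ion channels. Group I receptors, here Grm5, couple through Gq to phospholipase C, calcium release and protein kinase C, and sit mostly on the postsynaptic side. Group II (Grm2 and Grm3) and group III (Grm4, Grm7 and Grm8) receptors couple to Gi/o proteins, which inhibit adenylyl cyclase, and many of them sit on axon terminals, where they reduce transmitter release. Rorb encodes RORbeta, a nuclear receptor found in cortical layer 4 and in other sensory parts of the brain.

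The 6 genes differ widely in size. In GRCm38, Grm5 (ENSMUSG00000049583) spans chromosome 7 from 87584168 to 88134907 on the plus strand, and Grm7 (ENSMUSG00000056755) spans chromosome 6 from 110645581 to 111567230 on the plus strand. Grm8 (ENSMUSG00000024211) lies on the minus strand of the same chromosome, from 27275119 to 28135178. Grm2 (ENSMUSG00000023192) is the shortest, with 13.0 kb on the minus strand of chromosome 9, from 106643095 to 106656082. Grm3 (ENSMUSG00000003974) lies on the minus strand of chromosome 5 from 9485541 to 9725170, and Grm4 (ENSMUSG00000063239) on the minus strand of chromosome 17 from 27422387 to 27521403. The tables list 1 transcript each for Grm2 and Grm3, 4 for Grm4, 5 each for Grm5 and Grm7, and 6 for Grm8.

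Upstream sequence is shown for Grm7, which differed between a pair of mutants, and for Grm2, whose h1 libraries all lay below those of WT. Both are the 250 bases before an annotated start of transcription, from RefSeq on GRCm38.p6, with the GC box GGGCGG in capitals wherever it occurs on either strand.
Grm7, chr6:110645262-110645511, plus strand: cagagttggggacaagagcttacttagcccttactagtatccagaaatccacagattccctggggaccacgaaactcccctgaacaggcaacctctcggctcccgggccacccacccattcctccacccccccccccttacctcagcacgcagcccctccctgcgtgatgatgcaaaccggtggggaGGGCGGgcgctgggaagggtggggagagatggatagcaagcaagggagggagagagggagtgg
Grm2, chr9:106656110-106656359, minus strand: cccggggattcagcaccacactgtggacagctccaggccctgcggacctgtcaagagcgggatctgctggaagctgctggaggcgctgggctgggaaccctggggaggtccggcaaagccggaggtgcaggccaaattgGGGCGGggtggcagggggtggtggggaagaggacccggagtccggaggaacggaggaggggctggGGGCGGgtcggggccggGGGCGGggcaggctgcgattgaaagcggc
The window of Grm7 holds 1 GC box and that of Grm2 holds 3. RefSeq windows were found for Grm2, Grm3, Grm7 and Grm8, each running from 250 bases before to 50 bases after a start. In those full windows, GGGCGG on either strand occurred 4 times for Grm2, 2 times for Grm3 and 1 time for each start of Grm7 and the first-listed start of Grm8, beside 35.7% of 32851 windows of 300 bases in the table that hold it. AGGTCA, the core motif bound by ROR receptors, was searched on both strands. It was found 1 time in the window of a single start of Grm8 and in no window of Grm2, Grm3 or Grm7, beside 16.3% of all windows. These matches describe the letters only.

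Libraries held 14513800 to 24694200 expected counts, and each member was supported by 263 (Grm8) to 5298 (Grm5) expected counts in a single library. In CPM, expected counts scaled to the library total, Rorb itself ranged over WT libraries from 16.3 to 18.4, over h1 from 22.6 to 33.1, over h2 from 22.6 to 31.1 and over h4 from 8.65 to 9.11, and only the h4 difference from WT passed the test (log2 fold change -0.98, edgeR adjusted p = 0.0309). Markers of 15 brain, vessel and blood cell classes were read in every genotype, and no listed gene was at 0 in all libraries of a genotype. The labels do not give the sex. Xist, which is expressed from the inactive X chromosome of females, was high in all 3 WT libraries, 1 of 3 in h1, 1 of 3 in h2 and 2 of 3 in h4, so genotype and sex overlap in every comparison with WT, and receptor values with Xist status as a covariate are given where a call depends on it. The design names separate mice, so p-values measure the spread between animals.

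Levels between genes were compared in TPM, RSEM's transcript abundance scaled by transcript length. Grm5 was the most abundant of the 6, at a mean of 69.4 TPM over the 12 libraries, above 85.2% of the genes tested. Grm4 followed at 42.5 TPM, then Grm3 at 36.8, Grm7 at 30.9, Grm2 at 18.0 and Grm8 at 10.2. The lowest Grm5 library (63.8 TPM) lay above the highest Grm4 library (49.8), so the first step in this order exceeded the spread. Grm4 was above Grm3 in 11 of 12 libraries, the exception being h4 replicate 2, and Grm3 was above Grm7 in 12 of 12, although both pairs' ranges overlapped. Grm7, Grm2 and Grm8 were separated without overlap.

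Of the summed TPM of the 6 genes, the single group I receptor took 33.4% ± 1.31 (SD, n = 12 libraries), the group II pair 26.3% ± 0.952 and the group III trio 40.2% ± 1.59. By genotype, the Grm5 share was 33.2% for WT, 34.4% for h1, 33.3% for h2 and 32.8% for h4. The summed level was 212.4 ± 4.61 TPM for WT, 207.3 ± 4.52 for h1, 214.2 ± 5.72 for h2 and 197.3 ± 9.19 for h4 (SD, n = 3 each). No test was applied to the shares or sums.

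**Figure D1:**
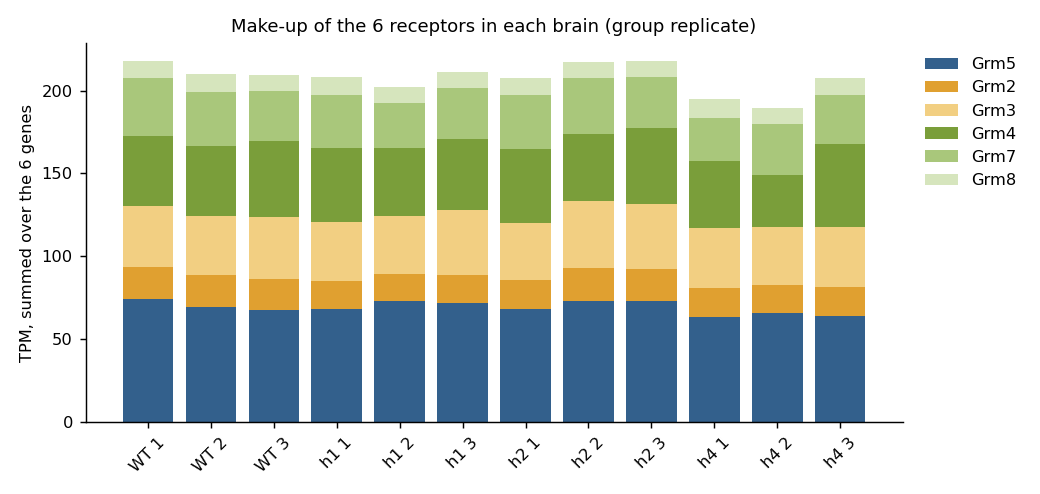
Stacked bars give the deposited TPM of the 6 receptor genes in each of the 12 brains, labelled by genotype and replicate, from 0. Grm5 is the largest segment in every brain, and the Grm4 segment of h4 replicate 2 (30.9 TPM) is the smallest of the 12.

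The receptors differed in how evenly they were expressed among mice of 1 genotype. The pooled within-genotype coefficient of variation of CPM was 2.72% for Grm5 and 2.96% for Grm2, below the median of 4.73% among 9934 tested genes of 10 to 300 CPM. Grm3 (4.60%), Grm7 (4.30%) and Grm8 (5.27%) lay near that median. Grm4 varied most, at 12.9%, the 98.4th percentile of those genes, and its variation was concentrated in h4 (23.7%, against 4.97% to 7.07% in the other genotypes).

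Grm5, the group I receptor of striatum, hippocampus and cortex, was lowest in h4. The WT libraries held 217, 204 and 207 CPM, the h1 libraries 202, 218 and 217, the h2 libraries 213, 215 and 212, and the h4 libraries 196, 200.3 and 194. Each h4 library was below all 9 others, while WT, h1 and h2 overlapped. Groups that did not overlap were common: 14.9% of all genes in h1 against WT, 15.2% in h2 against WT, 21.3% in h4 against WT, 15.5% in h2 against h1, 24.2% in h4 against h1 and 21.7% in h4 against h2. Between h4 and h1 Grm5 passed the test, with a log2 fold change of -0.13 (SE 0.04), a difference of -8.50% with a 95% interval from -13.3% to -3.50% (edgeR adjusted p = 0.0461, DESeq2 adjusted p = 0.0278). It was 1 of 6 receptor genes called in that comparison, where 4.64% of all genes were called and 2.53% were called lower. Against h2 the log2 fold change was -0.12 (adjusted p = 0.0655 with edgeR and 0.0451 with DESeq2), and against WT -0.10 (95% interval -11.6% to -1.67%, edgeR adjusted p = 0.134), so neither passed with edgeR.

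The Grm5 call against h1 sat close to the threshold. With Xist status as a covariate its log2 fold change was -0.11 (adjusted p = 0.108), and leaving out 1 library at a time gave adjusted p from 0.0215 to 0.187. Between h1 or h2 and WT, the intervals of Grm5 ran from -3.36% to 7.43% and from -3.66% to 7.12%. The log2 fold change of h2 against h1 was 0.00, and the mean of the mutants was -0.02 from WT.

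Grm7, a presynaptic receptor of low glutamate affinity found at active zones, was lowest in h4 and highest in h2. WT libraries held 56.4, 53.6 and 55.8 CPM, those of h1 57.9, 52.8 and 57.04, those of h2 60.8, 60.6 and 56.2, and those of h4 48.4, 53.2 and 52.0. Every h4 library lay below every WT and h2 library, and the h4 range overlapped that of h1. Between h4 and h2 Grm7 passed the test, with a log2 fold change of -0.22 (SE 0.05), a difference of -13.9% with a 95% interval from -19.9% to -7.42% (edgeR adjusted p = 0.0167, DESeq2 adjusted p = 0.0147). It was the only one of the 6 called by edgeR there, where 3.22% of all genes were called and 1.68% were called lower. With DESeq2, Grm5 and Grm7 were called in h4 against h2, where it called 4.67% of the genes it adjusted, and Grm5 alone in h4 against h1, where it called 5.8%.

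That call kept its side of the threshold with Xist as a covariate (log2 fold change -0.22, adjusted p = 0.0196). It was lost without h2 replicate 1 (adjusted p = 0.0602), h2 replicate 2 (0.0926) or h4 replicate 1 (0.117). On the log2(TPM + 0.1) scale, where RSEM's transcript mix enters, the Grm7 difference was -0.15 (limma adjusted p = 0.444). The test also differs there, and it called 117 genes in h4 against h2 where edgeR on counts called 531. Against WT the h4 log2 fold change was -0.12 (SE 0.05, edgeR adjusted p = 0.212) and against h1 it was -0.15 (SE 0.05, adjusted p = 0.0986). The h2 libraries stood 7.03% above WT with an interval from -0.34% to 14.9% (edgeR adjusted p = 0.459). In h1 against WT the log2 fold change was 0.03, in h2 against h1 0.07 and in the mean of the mutants 0.00.

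Grm2, an autoreceptor on glutamatergic terminals, had its lowest libraries in h1. The h1 libraries held 27.8, 26.3 and 28.2 CPM, the WT libraries 31.2, 31.5 and 31.9, the h2 libraries 30.1, 32.9 and 31.4, and the h4 libraries 29.1, 29.4 and 28.8. The h1 libraries lay below all others, and the h4 libraries lay between those of h1 and those of WT without overlap. In h1 against WT the log2 fold change was -0.19 (SE 0.06), a difference of -12.4% with an interval from -19.1% to -5.07%, yet it did not pass over all genes (edgeR adjusted p = 0.144). For h2 against h1 Grm2 gave a log2 value of 0.19 (SE 0.06, adjusted p = 0.129), and in h4 against WT -0.13 (SE 0.06, adjusted p = 0.237). It was 0.06 in h4 against h1 and -0.12 in h4 against h2, and the mean of the mutants differed from WT by -0.11, none of which passed. In h2 against WT it was 0.00, with an interval from -7.69% to 8.2%.

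Grm3, the group II receptor found on astrocytes as well as neurons and activated by the dipeptide NAAG, ranged from 62.03 to 66.5 CPM over WT libraries, 62.6 to 69.6 over h1, 63.3 to 70.7 over h2 and 63.03 to 65.8 over h4. The genotypes overlapped in each comparison. Its log2 fold changes against WT were 0.04 in h1, 0.08 in h2 and 0.01 in h4, each with an SE of 0.05, and the widest interval allowed reached 13.5% in h2. Between mutants they were 0.04 in h2 against h1, -0.03 in h4 against h1 and -0.08 in h4 against h2, and the mean of the mutants was 0.04 from WT. Grm8, a presynaptic receptor with high affinity for glutamate, ranged from 15.5 to 17.1 CPM over WT libraries, 16.0 to 16.8 over h1, 16.2 to 18.1 over h2 and 15.9 to 18.2 over h4. Its intervals against WT ran from -8.81% to 12.5% in h1, from -5.84% to 16.3% in h2 and from -6.94% to 15.2% in h4. Between mutants its log2 fold changes were 0.05 in h2 against h1, 0.03 in h4 against h1 and -0.02 in h4 against h2, and for the mean of the mutants 0.04, with SEs of 0.06 to 0.07. No comparison of Grm3 or Grm8 passed.

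**Figure D2:**
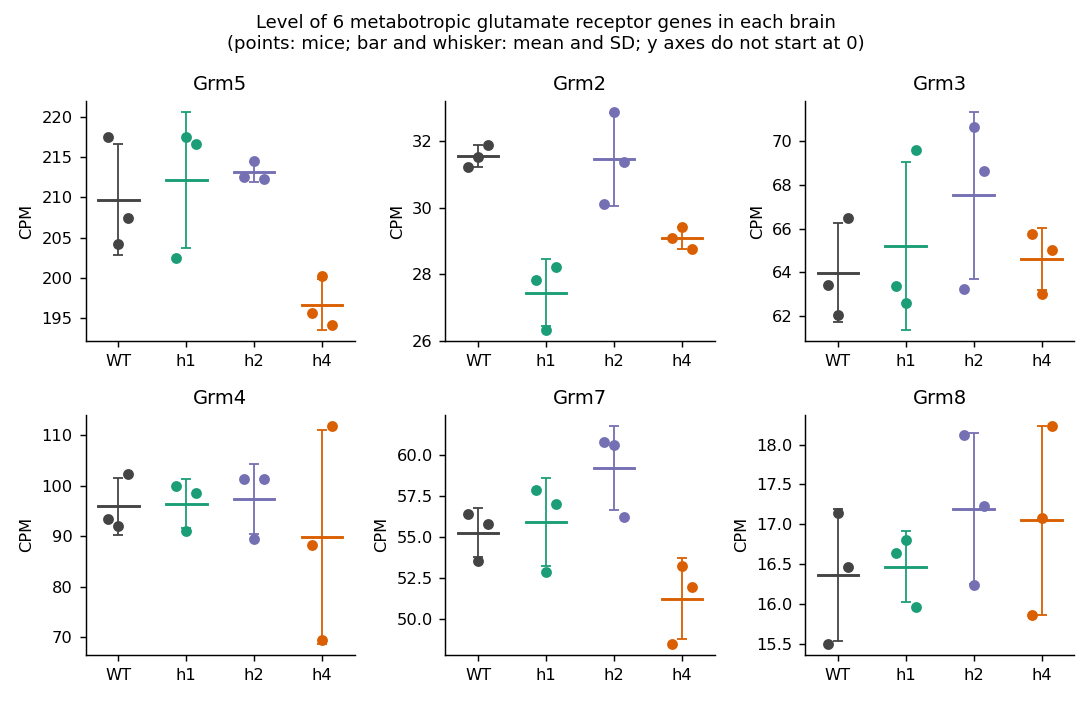
CPM of each receptor gene by genotype, with 1 point per mouse, the group mean as a bar and the SD as a whisker (n = 3); the y axes do not start at 0. The h4 points of Grm5 lie below all others, the h1 points of Grm2 lie below all others, and the h4 points of Grm4 spread from 69.5 to 112.0 CPM.

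Counting all 6 receptor genes, none was called in h1 against WT, where 0.625% of all genes were called, in h2 against WT (0.679%), in h4 against WT (4.55%), in h2 against h1 (0.722%) or in the mean of the 3 mutants against WT (1.1%). DESeq2 also called none in those 5 comparisons, where it called 1.29%, 1.31%, 5.94%, 1.11% and 2.38% of the genes it adjusted. At an unadjusted edgeR p under 0.05 the counts were 1, 0, 3, 1 and 1 of 6, beside 9.82%, 11.5%, 17.6%, 9.49% and 12.5% of all genes. They were 2 of 6 in h4 against h1 and 3 of 6 in h4 against h2, beside 19.1% and 16.8%. The median log2 fold change of the 6 was -0.10 in h4 against WT, -0.08 in h4 against h1 and -0.12 in h4 against h2, beside medians over all tested genes of 0.01, 0.01 and 0.00. All 6 values were negative in h4 against h2, and 4 of 6 in h4 against WT. These comparisons share the h4 libraries and are not independent of one another.

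**Figure D3:**
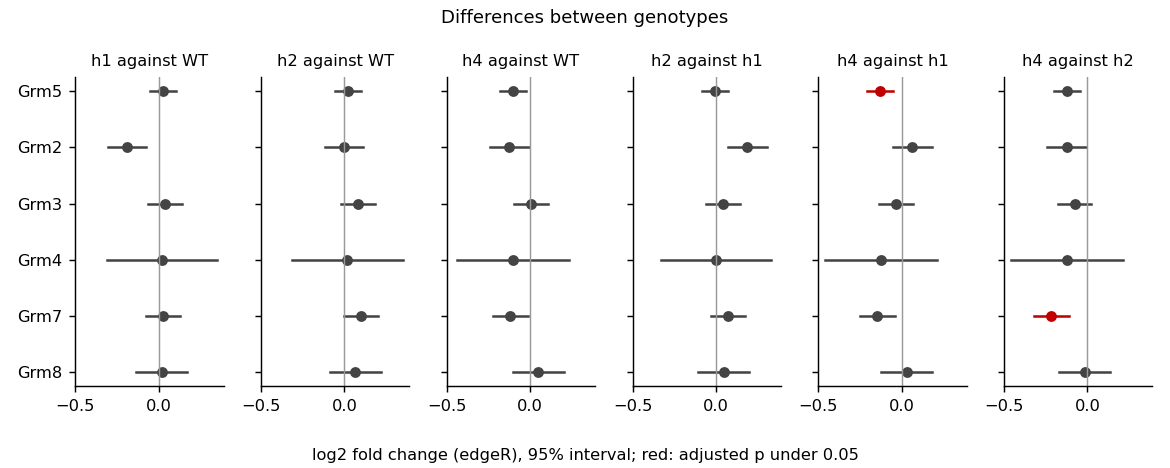
Points give the edgeR log2 fold change of each receptor gene in 6 comparisons and lines its 95% interval, with calls at an adjusted p under 0.05 in red. Only Grm5 in h4 against h1 and Grm7 in h4 against h2 are red, and the Grm4 lines are the longest.

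Some markers of cortical excitatory neurons were also lower in h4. The summed CPM of the 9 cortical excitatory markers, a list that includes Rorb, was 864 to 910.4 in h4, 930.2 to 995.8 in WT, 934 to 965 in h1 and 946 to 969 in h2. Of those 9, 4 were lower in h4 than in WT, 3 lower than in h1 and 2 lower than in h2, and none was higher. Over all genes 2.91%, 2.53% and 1.68% were called lower in h4 than in WT, h1 and h2, and 1.64%, 2.11% and 1.54% higher. Among 10 astrocyte markers, 2 were higher (Slc1a3 and Sox9) and 1 lower (Slc1a2) in h4 than in h1, and 2 were higher and none lower than in h2. In h4 against WT, where no receptor passed, 4 were higher, including Aldh1l1 (log2 fold change 0.28, edgeR adjusted p = 0.00123) and Gfap (0.38, adjusted p = 0.00172), while the list's summed CPM overlapped, at 4503 to 4656 in h4 and 4490.0 to 4628 in WT. In h1 against WT, where the Grm2 difference did not pass, 7 of 10 oligodendrocyte markers were higher, beside 0.418% of all genes. Their summed CPM was 14066 to 14489 in h1 and 10905 to 12446 in WT. The rise was not confined to h1: 2 of the 10 were higher in h2 than in WT, 1 in h4 and 7 in the mean of the mutants. Over all genes 0.34%, 1.64% and 0.485% were called higher in those comparisons. Xist was high in 1 h1 library and in all 3 of WT. In h1 against WT 2 of 8 endothelial and mural markers were lower, Cldn5 (-0.57) and Cdh5 (-0.34), beside 0.206% of all genes. In h4 against h1, 6 of those 10 oligodendrocyte markers were lower, beside 2.53% of all genes. Grm2 had a log2 fold change of 0.06 there (edgeR adjusted p = 0.597). The part of these markers in the receptor values was not tested. In whole brain, fewer cells of a type and less RNA per cell cannot be told apart.

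Grm4 acts on the parallel fibre terminals of cerebellar granule cells, and it reached 88.2, 69.5 and 112.0 CPM in the h4 libraries. WT libraries held 93.4, 91.9 and 102.4 CPM, h1 libraries 99.9, 91.0 and 98.5, and h2 libraries 101.3, 89.4 and 101.3. The genotypes overlapped, and h4 held both the lowest and the highest of the 12 values. In h4 against WT the difference was -6.94%, and its interval, from -26.3% to 17.5%, leaves sizeable differences in either direction within the error (edgeR adjusted p = 0.787). On the log2 scale Grm4 differed from WT by 0.02 in h1 and in h2 and by -0.02 in the mean of the mutants, and h4 differed from h1 and from h2 by -0.12, with SEs of 0.12 to 0.15. In h2 against h1 the value was 0.00, and no Grm4 comparison passed. The summed CPM of 9 granule cell markers also spread most in h4, at 1264, 1021 and 1323 in replicates 1, 2 and 3, against 1043 to 1187 in WT, 1050.1 to 1073 in h1 and 1068 to 1119 in h2. Within h4 the 3 libraries held the same order for Grm4 and for this sum. Replicate 2, the lowest of h4 in both, was also its only library with low Xist, so sex is not separate from this order.

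Over all 12 libraries Pearson's r between Grm4 and the granule sum was 0.48 (permutation p = 0.128, 0.284 after Benjamini-Hochberg adjustment over the 6 receptors) and Spearman's rho 0.45 (permutation p = 0.141, adjusted 0.422), so the relation did not pass. Without h4 replicates 1 and 3, the libraries farthest from the median sum, r was 0.57. After subtracting each genotype's mean, r over all 12 libraries was 0.84, a description in which the part of dissection was not tested. Both Grm4 and the sum spread most in h4, so the value of 0.84 leans on the h4 libraries. In h2 the order was not kept, as replicate 1 held 101.35 CPM of Grm4 at a sum of 1068 and replicate 2 held 89.4 at 1117.5. Among the other receptors, Grm5 had r = -0.57 with the sum (permutation p = 0.0491, adjusted 0.284), which became 0.18 without h4 replicates 1 and 3 and so rests on them.

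RSEM also reports for each gene a length averaged over the estimated mix of its transcripts. Grm2 and Grm3 were fixed at 3320 and 3536 bases, since the tables list a single transcript for each. Those lengths differ from the 4711 and 3049 bases of the same transcripts in GENCODE M21, so the transcript models behind the tables differ from that release. Grm7 averaged 3435 ± 174 bases for WT, 3712 ± 143 for h1, 3655 ± 67.2 for h2 and 3485 ± 122 for h4 (SD, n = 3). Its WT libraries were 3306, 3366 and 3634 bases and its h1 libraries 3589, 3869 and 3676, which overlap. Grm8 measured 3251 ± 98.7 bases in WT and 3440 ± 40.8 in h2, where all 3 h2 libraries were above all WT libraries (2-sided exact permutation p = 0.1, the smallest that 3 against 3 allow). Among 16 such length comparisons the smallest Benjamini-Hochberg adjusted exact permutation p was 0.742. In h4 the Grm8 length ran from 2741 to 3672 bases, the widest range of any receptor in a genotype. The Grm7 lengths bear on its TPM: in h1 against WT its log2 fold change was 0.03 in counts and -0.12 on the log2(TPM + 0.1) scale, neither of which passed.

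**Figure D4:**
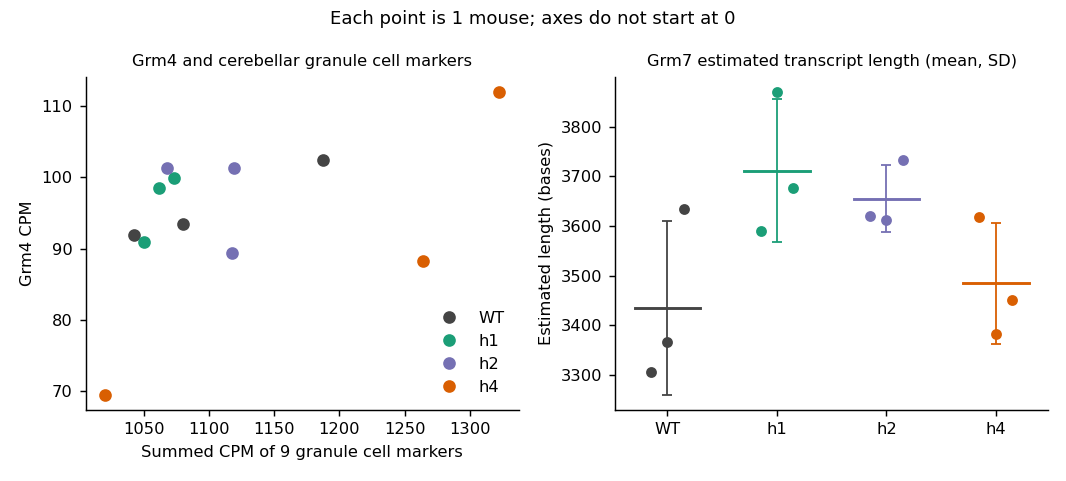
Left, Grm4 CPM against the summed CPM of 9 granule cell markers in each of 12 brains, coloured by genotype; right, the estimated Grm7 transcript length in bases with mean and SD (n = 3). The 3 h4 brains span the whole range of Grm4, 69.5 to 112.0 CPM, and the WT and h1 lengths of Grm7 overlap.

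Part of the Gq pathway of group I receptors was lower in h4. Of 22 listed genes of Gq signalling and postsynaptic scaffolds, 8 were lower and none higher in h4 than in WT, where 2.91% of all genes were called lower and 1.64% higher, with a median log2 fold change of -0.12 beside 0.01 over all genes. Dagla, the diacylglycerol lipase that makes the endocannabinoid 2-AG, measured 79.4 ± 1.98 CPM in h4 and 96.5 ± 5.92 in WT (SD, n = 3), a log2 fold change of -0.29 with an SE of 0.04 (edgeR adjusted p = 0.000138). Itpr1, the IP3-gated calcium channel of the endoplasmic reticulum, measured 996 ± 60.6 and 1144 ± 40.8 CPM (-0.21, adjusted p = 0.00403). Plcb1, a Gq-activated phospholipase, measured 211 ± 9.51 and 240.2 ± 10.0 CPM (-0.19, adjusted p = 0.00423). Also lower were the G protein subunit Gnaq (-0.15), the kinase Prkcb (-0.17) and the scaffolds Shank1 (-0.55) and Shank3 (-0.46), which were named after their values were seen.

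In h4 against h1, 3 genes of this Gq list were lower, namely Plcb1 (-0.23, edgeR adjusted p = 0.00117), Prkcb (-0.20, adjusted p = 0.00636) and Dagla (-0.17, adjusted p = 0.0219). In h4 against h2, 5 were lower, among them Plcb1 (-0.17, adjusted p = 0.0136), Prkcb (-0.18, adjusted p = 0.0141) and Dagla (-0.16, adjusted p = 0.0366). Over all genes 2.53% were called lower in h4 than in h1 and 1.68% lower than in h2. edgeR called none of the 22 in h1 against WT, h2 against WT or h2 against h1 (5, 4 and 1 at an unadjusted p under 0.05, and 1, 1 and 0 by DESeq2). Without WT replicate 3, 5 were lower in h1 and 5 in h2 than in WT. The mean of the 3 mutants was lower than WT for Dagla (-0.18, adjusted p = 0.00702) and Itpr1 (-0.17, adjusted p = 0.00938), and for none with Xist as a covariate or without WT replicate 1 or 2, and 6 were lower without WT replicate 3. The count of 8 in h4 against WT was 6 with Xist as a covariate, 6 in the Xist-high libraries alone (2 of h4, 3 of WT) and 3 on the TPM scale. It was 2 without WT replicate 1 or without h4 replicate 1, 4 without WT replicate 2, and no gene was higher under any of these settings. Between mutants the counts also moved: against h1 to 1 without h4 replicate 1, and against h2 to 0 without h2 replicate 2 or h4 replicate 1, 3 without h2 replicate 1 or h4 replicate 3 and 8 without WT replicate 3. On the TPM scale they were 0 in both. Itpr1 is also a marker of Purkinje cells, whose 7 markers summed to 1545 to 1824 CPM in h4 and 1870 to 1897 in WT, with Itpr1 the only one called. The lower sum was not confined to h4, at 1646 to 1715 CPM in h1 and 1704 to 1780 in h2. Against WT, Itpr1 had a log2 fold change of -0.17 in h1 (edgeR adjusted p = 0.0526) and -0.14 in h2 (adjusted p = 0.131). In h4 against h1 it was -0.04 (adjusted p = 0.690).

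Genes of the Gi/o pathway of group II and III receptors were called by edgeR in both directions in h4. DESeq2 called 4 lower and none higher in h4 against WT, and the same in h4 against h1. In h4 against h2 it called 2 lower and 1 higher. Of 24 listed genes, 4 were lower and 1 higher in h4 than in WT, beside the same 2.91% and 1.64% of all genes, with a median of -0.05. Adcy5, the adenylyl cyclase most prominent in striatum, fell from 248 ± 11.6 CPM in WT to 218 ± 13.6 in h4 (SD, n = 3; log2 fold change -0.19, edgeR adjusted p = 0.0246). Adcy1, a calcium-stimulated cyclase, had a log2 fold change of -0.14 (adjusted p = 0.027), the Go subunit Gnao1 -0.13 (adjusted p = 0.0281) and the Gz subunit Gnaz -0.16 (adjusted p = 0.036). Gng3, a G protein gamma subunit, was higher by 0.14 (adjusted p = 0.0364). None of the 24 was called without WT replicate 1, WT replicate 2 or h4 replicate 1, 1 was called without h4 replicate 3 and 2 without h4 replicate 2. In h4 against h1, edgeR called 3 lower (Rgs4 -0.15, Adcy5 -0.18 and Rgs7 -0.20) and Gnai3 higher (0.16), beside 2.53% and 2.11% of all genes. In h4 against h2, edgeR called Adcy5 lower (-0.18) and Gng3 higher (0.15), beside 1.68% and 1.54% of all genes. The list had no call against h1 without h1 replicate 1, h1 replicate 3 or h4 replicate 1, and none against h2 without h2 replicate 2, h2 replicate 3 or h4 replicate 3. edgeR called no gene of this list in h1 or h2 against WT, in h2 against h1 or in the mean of the mutants (4, 2, 2 and 3 at an unadjusted p under 0.05, and 0, 0, 0 and 1 by DESeq2).

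**Figure D5:**
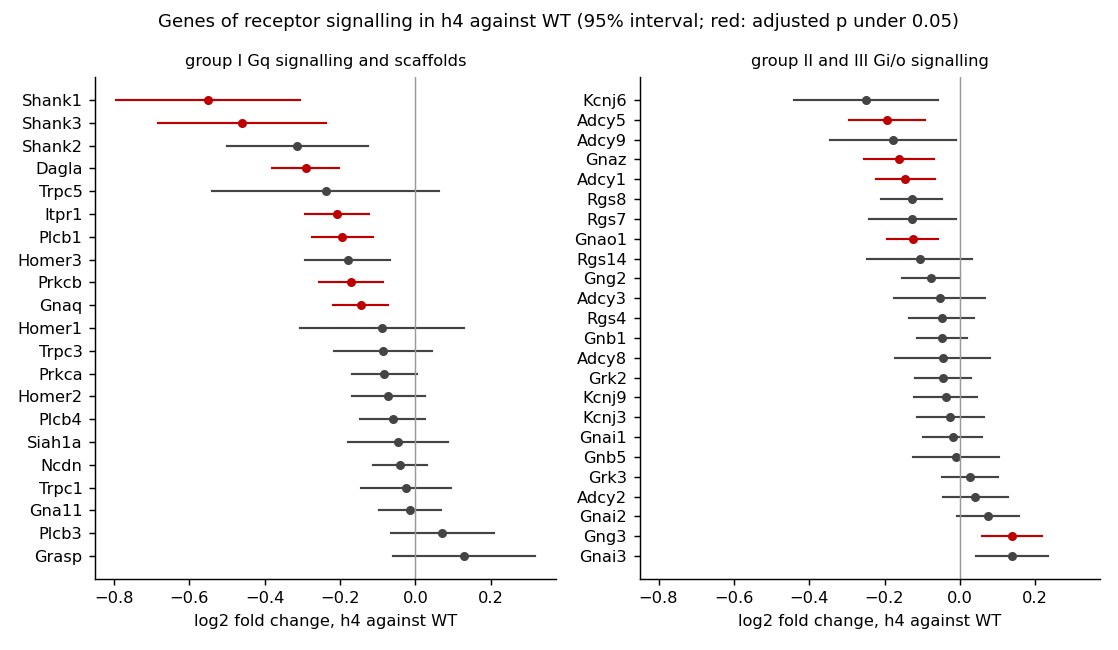
Gq pathway genes (left, 21 of the 22 drawn) and the 24 Gi/o pathway genes (right), with the log2 fold change of h4 against WT on the x axis, lines for 95% intervals and calls in red. On the left 7 genes are red, all below 0; on the right 4 are red below 0 and Gng3 is red above it.

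Among the 11 listed binding partners of group III receptors, 9 passed the filter. Elfn2, a synaptic adhesion protein that binds group III receptors across the synapse, measured 74.3 ± 3.38 CPM in WT, 63.9 ± 3.98 in h2 and 60.5 ± 0.915 in h4 (SD, n = 3). It fell in h4 by 0.31 on the log2 scale (SE 0.05, edgeR adjusted p = 0.000372) and in h2 by 0.22 (SE 0.05, adjusted p = 0.0297). In h1 its log2 fold change was -0.16 (SE 0.05, adjusted p = 0.177). The mean of the mutants was lower by a log2 fold change of -0.23 (adjusted p = 0.00296). The h2 call was lost with Xist as a covariate and without WT replicate 1, WT replicate 2, h2 replicate 1 or h2 replicate 2, while at least 1 gene of the list was called lower in h4 than in WT under each alternative. Sdcbp, a PDZ-domain scaffold, was higher in h4 than in WT by 0.13 (adjusted p = 0.0436), which was lost with Xist as a covariate and without any single WT or h4 library. edgeR and DESeq2 called no partner in h4 against h1, in h4 against h2 or in h1 against WT (2 in each at an unadjusted edgeR p under 0.05).

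Of 16 genes of glutamate and NAAG supply and removal, edgeR called 2 higher and 3 lower in h4 than in h1, 2 higher than in h2 and 1 higher than in WT (7, 7 and 8 at an unadjusted p under 0.05). Over all genes edgeR called 2.11% higher and 2.53% lower in h4 than in h1, 1.54% higher than in h2 and 1.64% higher than in WT. Of the 16, DESeq2 called 2 higher and 3 lower in h4 against h1, and 2 higher and 1 lower in h4 against h2. In h4 against WT it called 1 higher and 3 lower. Slc1a3, the astrocytic transporter GLAST, measured 809.5 ± 1.75 CPM in h4, 723 ± 22.8 in WT, 699 ± 1.36 in h1 and 682 ± 9.07 in h2 (SD, n = 3). It was higher in h4 than in WT (log2 fold change 0.15, edgeR adjusted p = 0.00422), h1 (0.19, adjusted p = 0.000693) and h2 (0.24, adjusted p = 5.54e-05). Slc7a11, the cystine-glutamate exchanger, was higher in h4 than in h1 (0.54, adjusted p = 0.00436) and h2 (0.37, adjusted p = 0.0351). Glutamine synthetase, Glul, was lower in h4 than in h1 (-0.35, adjusted p = 0.00233), as was the transporter Slc1a2 (-0.24, adjusted p = 0.0279). These 5 calls against h1 became 3 without h1 replicate 3 or h4 replicate 1, and 2 on the TPM scale. edgeR called none of the 16 in h1 or h2 against WT (3 and 1 at an unadjusted p under 0.05, and 2 and 0 by DESeq2).

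Grm5 is the only 1 of the 6 genes near a locus that distinguishes the background strains, as it starts 90.7 kb from Tyr on chromosome 7. Of 7 tested genes within 1 Mb of Grm5 (Folh1, Tyr, Rab38, Ctsc, Nox4, Rps13-ps2 and Grm5 itself), none was called in h2 against WT, and only Grm5 was called in h4 against h1. By the strain names, the Tyr allele belongs to the background of h2 and not to that of h4 or h1. Annotated genes overlap 3 of the receptors, but the library kit does not mark strand. The only one with counts was Gm20387, an antisense gene within Grm7, at no more than 2.69 CPM.

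Across the 12 libraries, the genes whose log2 CPM tracked each receptor most closely among 11527 genes of at least 5 CPM were sought as a description. For Grm5 these included Wasf1 (Pearson's r = 0.94) and Rasgrp1 (0.93), and for Grm7 Spns1 (0.94), Mcts1 (0.92) and App (0.90). For Grm2 they were Tmem184b (0.93), Lama3 (0.91) and Tnrc6c (0.89), and for Grm8 Slc13a4 (0.90), Azin2 (0.87) and Atp5d (0.86). Those of Grm4 included Ebf3 (0.87) and Calb2 (0.84), and those of Grm3 were Trmt10a (0.84), St8sia3 (0.84) and Scamp5 (0.83). The libraries fall into the genotype groups, and neither the likeness nor the part of dissection was tested.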

How the data were processed

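Per the labels, brain pieces stored in RNAlater were extracted with TRIzol, and poly(A) libraries were made with the unstranded TruSeq v2 kit and read as paired ends. The authors deposited 1 gene table per library; RSEM 1.2.12 and Bowtie2 2.2.0 were used, per the submitters' processing notes. Their build and annotation were not given in the sources used here. Expected counts deposited by the authors are RSEM estimates in which a pair matching several genes is shared. The deposited TPM values are scaled to transcript length and library. The deposited FPKM values were not used. The authors' tables also hold estimated transcript lengths.

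Symbols and positions came from GENCODE M21 (GRCm38), which held 37607 of 38924 identifiers. Rounded expected counts were tested with edgeR 4.0.16 (quasi-likelihood, robust, TMM factors 0.991 to 1.012, its low-count filter) in R 4.3.3, with 1 mean per genotype over all 12 libraries. A gene passed when its Benjamini-Hochberg p, adjusted over 16493 genes, was under 0.05; SEs are the log2 fold change divided by the root of F. CPM are taken against the library total of expected counts, without TMM. The common biological coefficient of variation was 0.0531. DESeq2 1.42.0, limma 3.58.1 on log2(TPM + 0.1) and log2(TPM + 1), other scalings, no filter, Xist as a covariate and leave-outs were alternatives; the fits were tested on simulated data. Correlations used 100000 permutations (scipy).

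All 6 members are given in every comparison. Of each signalling list, called genes are named up to 4 per comparison by smallest adjusted p, and of each marker list up to 3; likeness names 3 genes per receptor, leaving out predicted genes and pseudogenes. The members and lists were chosen with earlier results of these data known. Values of some genes and of 1 list are not reported here.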

Additional observations from a re-analysis of the deposited data

Results flagged for a closer look

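In 2 cases the difference of a receptor from WT itself differed between mutants by a test of the difference itself, the edgeR comparison of the mutants, which cancels the shared WT libraries. Grm5 had a log2 fold change of 0.03 in h1 and -0.10 in h4 against WT, and -0.13 in h4 against h1 (adjusted p = 0.0461). Grm7 had 0.10 in h2 and -0.12 in h4 against WT, and -0.22 in h4 against h2 (adjusted p = 0.0167). None of these 4 differences from WT passed. These 2 cases are the only edgeR calls among the comparisons of the 6 receptors, and they were picked for that reason. With Xist as a covariate the edgeR adjusted p was 0.108 for Grm5 and 0.0196 for Grm7. Leaving out 1 library at a time kept the Grm5 call in 5 of 12 fits and the Grm7 call in 9 of 12. Neither was called on the TPM scales. Allele and background strain cannot be told apart in h2 and h4.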

How the results depend on the processing

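Uncalled values of the 6 receptors changed sign in 93 of 877 refits, at sizes up to 0.14, and values called in either fit in 0 of 47. In h4 against h1, where 1 receptor was called, 0 were called with library totals alone (Grm5 adjusted p = 0.0775), non-robust dispersion (0.0617), Xist as a covariate, both TPM fits (0.189 and 0.188) and, chosen after seeing the data, Xist-high libraries only (1 library of h1, assumed to vary like the other groups), and 2 without a low-count filter (Grm5 and Grm7, 0.0462). Leave-outs gave 0 to 1, with 0 without WT replicate 2, h1 replicate 2 or 3, h2 replicate 2 or 3, or h4 replicate 1 or 3. In h4 against h2, where 1 was called, 2 were called with DESeq2 and without the filter (Grm5 0.0371), and 0 on both TPM scales; leave-outs gave 0 to 1. The other 5 comparisons called no receptor under any alternative. The cause of these changes was not tested. Over all genes, calls in h1 against WT went from 103 to 31 with Xist as a covariate, 24 without WT replicate 1, 0 on the TPM scales and 166 without WT replicate 3. In h4 against WT they went from 751 to 230 without WT replicate 1, 152 on the TPM scales and 1111 without WT replicate 3, which also raised h2 against WT from 112 to 348 and the mean of the mutants from 181 to 505. The titles of h1 and h2 end in the same numbers, which the labels tie to no shared litter or day; with that number as a replicate block, h2 against h1 called 0 receptors, as without it, and 204 genes in place of 119. Depth limits Grm8 most, with 263 to 406 expected counts per library.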
